A study of Mus musculus with 9 samples.

Results

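The genes described here encode the enzymes that break down fatty acids and the branched-chain amino acids in mitochondria. They are 40 named genes, taken by their symbols from the deposited files: 15 genes of fatty acid β-oxidation, 21 genes of branched-chain amino acid breakdown, 3 genes of the electron transfer flavoprotein route that serves both pathways, and Oxct1, which encodes the transferase that lets cells use ketone bodies. All 40 genes were found, among 19094 genes listed in at least 1 sample, and all 40 passed the filter on low counts that left 13154 genes for testing.

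The samples were 3T3-L1 cells, an established mouse embryonic fibroblast line that is widely used as a model of fat cell formation. RNA sequencing was performed in 3 samples at day 0, before induction, 3 samples at day 4 and 3 samples at day 8 of differentiation. The groups shared the same line and the same base medium. Differentiation was started with an induction medium containing dexamethasone, IBMX (a phosphodiesterase inhibitor) and insulin, and the cells were then kept in medium with insulin, so the day of differentiation and the change of medium cannot be told apart. According to the methods, cells were pooled at each stage and each sample was a mixture of RNA. The labels do not say whether the 3 samples of a day came from separate cultures, and p-values therefore measure only the spread between these samples, which may be technical. Estimated counts summed to between 18216114 and 20452144 per sample.

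The labels call the cells adipocytes on every day, while their extraction text names dorsal root ganglia, a tissue of sensory neurons. The 10 adipocyte markers examined, such as the fatty acid binding protein gene Fabp4 and the adiponectin gene Adipoq, summed to 152 ± 3.43, 7190 ± 1277 and 9064 ± 399 FPKM on days 0, 4 and 8 (SD, n = 3). FPKM is a level scaled to gene length and sequencing depth, so that it can be compared between genes. The 8 sensory neuron markers summed to 0.74 ± 0.165, 1.23 ± 0.0874 and 1.54 ± 0.101 FPKM on the same days (SD, n = 3). Of these 8, Scn10a, Nefl and Nefm were at 0.02 FPKM or less in every sample, and Scn9a at 0.04 or less. Prph and Tubb3 were at 0.25 to 0.44 and 0.28 to 0.34 FPKM at day 0 and lower afterwards, and Calca was at 0 until day 8 and then at 0.15, 0.3 and 0.3 FPKM. The most abundant of the 8 on days 4 and 8, Snap25, was also the only one with enough counts to be tested. It was at 0, 0.08 and 0 FPKM at day 0, 1.08, 1.1 and 1.17 at day 4, and 1.13, 1.04 and 1.12 at day 8, and it rose in the early phase (edgeR, adjusted p = 3.3e-08).

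Both pathways cut carbon skeletons down to small units bound to CoA, such as acetyl-CoA or propionyl-CoA, by similar chemistry. Long fatty acids enter the mitochondrion through the carnitine shuttle and then pass through repeated rounds of dehydrogenation, hydration, a further dehydrogenation and thiolysis. Leucine, isoleucine and valine first lose their amino group to a branched-chain aminotransferase and are then committed by the branched-chain keto acid dehydrogenase complex. After that step they are handled by acyl-CoA dehydrogenases, hydratases and dehydrogenases related to those of β-oxidation. In fat cells, branched-chain breakdown is known as a source of carbon for fatty acid synthesis, while β-oxidation is best known from muscle, liver and brown fat.

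The comparisons made were the early phase (day 4 against day 0), the late phase (day 8 against day 4) and the whole course (day 8 against day 0). They share samples, so their values are given side by side and are not independent of each other. Fold changes are on the log2 scale with their standard error (SE), and p-values are from edgeR's quasi-likelihood test, adjusted by Benjamini-Hochberg over all genes tested. A gene is said to have risen or fallen when its adjusted p was under 0.05.

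In the early phase most genes of both pathways rose. Of the 40 genes, 27 rose more than 2-fold, against 9.77% of all genes tested, and 1 fell more than 2-fold, against 7.98% of all genes. At any fold, 36 rose, against 35.5% of all genes, and 1 fell, against 33.7%. In these bulk samples, a change in the share of cells of one type and a change in the RNA level per cell cannot be told apart. The median log2 fold change was 1.41 for the 15 fatty acid genes, 1.45 for the 3 electron transfer genes and 1.27 for the 21 branched-chain genes, beside 0.02 for all genes tested. More than 2-fold rises were counted in 9 of the 15 fatty acid genes, 2 of the 3 electron transfer genes and 16 of the 21 branched-chain genes.

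Between day 4 and day 8 none of the 40 genes passed 2-fold in either direction, against 4.24% of all genes that rose and 2.81% that fell by that much. At any fold, 14 rose, against 22.5% of all genes, and 8 fell, against 22.7%, while 18 did not pass the test. The median log2 fold change in this phase was 0.04 for the fatty acid genes and 0.06 for the branched-chain genes, beside -0.01 for all genes. Over the whole course, 28 of the 40 rose more than 2-fold, against 10.3% of all genes, and 1 fell, against 7.70%. At any fold, 37 rose over the whole course, against 34.8% of all genes, and 1 fell, against 36.2%.

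**Figure D1:**
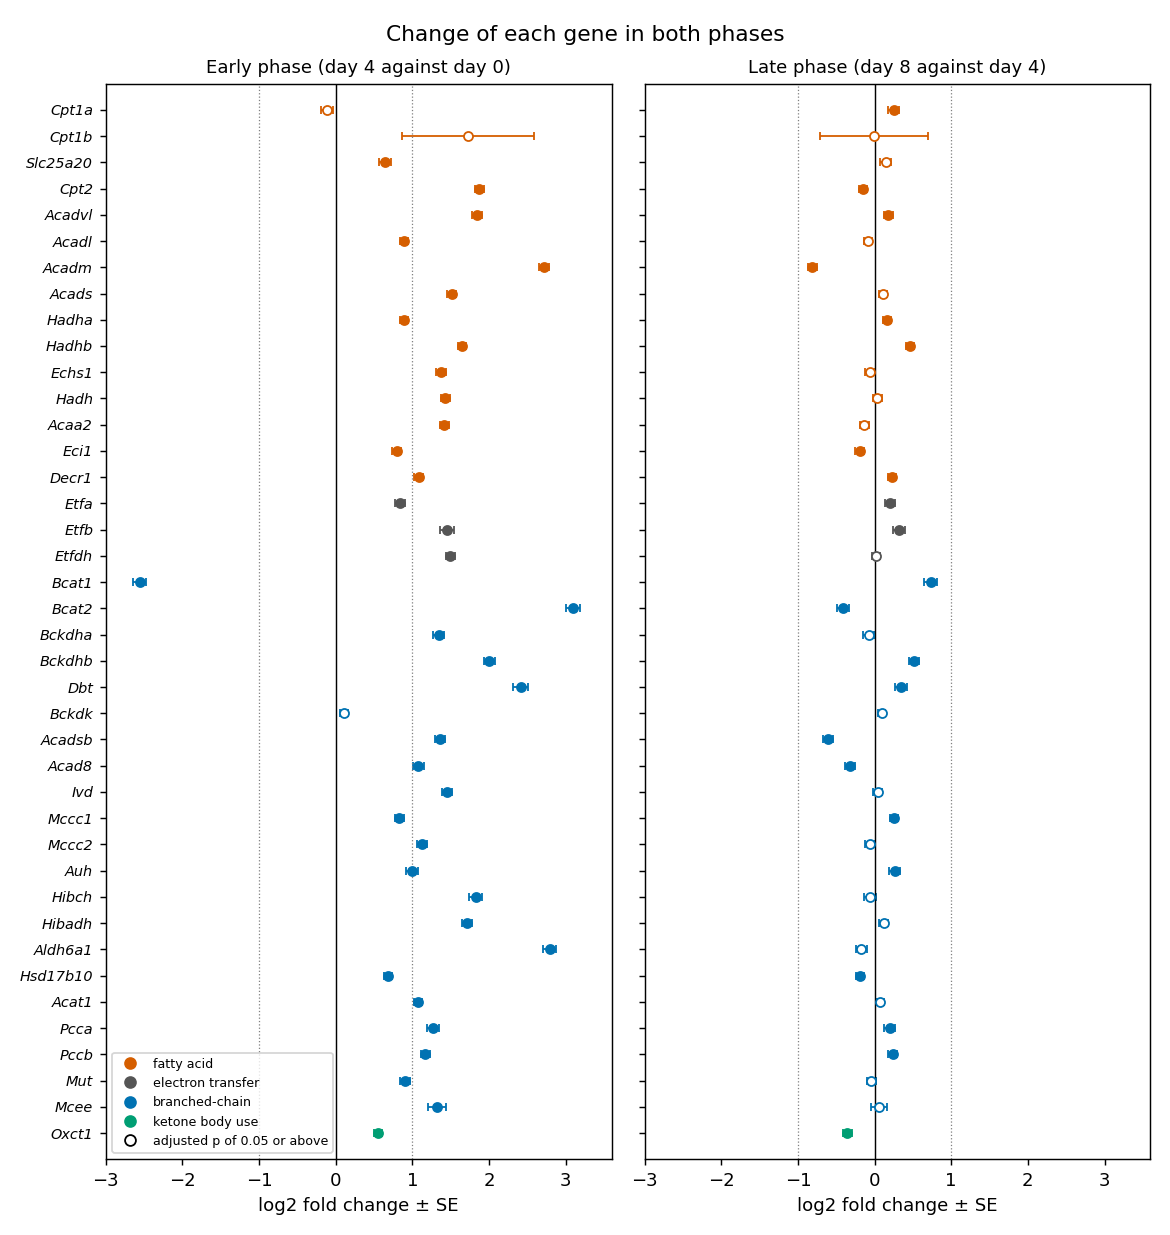
Log2 fold change of each of the 40 genes with its SE, for the early phase (left) and the late phase (right). Colours mark the pathway, open circles an adjusted p of 0.05 or above, and dotted lines a 2-fold change. In the early panel all but 4 genes lie to the right of 0 and pass the test, with Bcat1 far to the left at -2.56, and in the late panel every gene lies within 2-fold.

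The carnitine shuttle, which carries long fatty acids across the mitochondrial membranes, did not change as a unit. Cpt1a (gene ID 12894) encodes carnitine palmitoyltransferase 1A of the outer membrane, the regulated entry step of β-oxidation. Its FPKM was 21.2, 19.36 and 21.8 at day 0, 20.33, 18.87 and 15.68 at day 4, and 21.92, 20.55 and 20.72 at day 8. The day 0 samples overlapped those of both later days, the day 8 samples lay just above those of day 4, and the lowest of all was day 4 replicate 3. The early log2 fold change was -0.12 ± 0.08 (adjusted p = 0.18, edgeR), the late one 0.25 ± 0.08 (adjusted p = 0.015) and that of the whole course 0.13 ± 0.08 (adjusted p = 0.14).

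Cpt2 (12896), the inner membrane enzyme that hands acyl groups back to CoA, behaved differently. Its FPKM was 16.33, 17.42 and 16.75 at day 0, 54.91, 62.1 and 59.47 at day 4, and 49.41, 53.15 and 52.07 at day 8. Every day 4 and day 8 sample was above every day 0 sample, and the day 4 samples lay above those of day 8. Cpt2 rose by 1.87 ± 0.06 in the early phase (adjusted p = 9.4e-14) and fell by 0.15 in the late phase (adjusted p = 0.036). Slc25a20, the carnitine-acylcarnitine carrier between both transferases, rose by 0.65 ± 0.08 in the early phase (adjusted p = 1.5e-06), and its late log2 fold change was 0.15 ± 0.07 (adjusted p = 0.11).

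Cpt1b (12895), the muscle form of the entry enzyme, was hardly detected. Its FPKM was 0, 0.26 and 0.24 at day 0, 0.44, 0 and 1.14 at day 4, and 0.26, 0.73 and 0.52 at day 8. The days overlapped, and 1 sample at day 0 and 1 at day 4 had a count of 0. The early log2 fold change was 1.73 ± 0.86 (adjusted p = 0.087). Of the 50-base stretches of its transcripts, 78.6% also occur in Gm44502, a gene model on the same strand that the files do not list, so that its counts are uncertain. With 1 sample left out, the early value of Cpt1b was between 0.50 and 2.30, and it passed the test only without day 4 replicate 2 (2.30, adjusted p = 0.0062). With no filter on low counts its early and whole-course values also passed (both adjusted p = 0.023).

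Acyl-CoA dehydrogenases carry out the first reaction of each round of β-oxidation, and all 4 rose in the early phase. Acadm (11364), the medium-chain enzyme, changed most of the 15 fatty acid genes in the early phase. Its FPKM was 27.07, 26.8 and 25.97 at day 0, 153.68, 163.27 and 183.03 at day 4, and 89.01, 95.16 and 92 at day 8. The 3 days were fully separate, with day 4 highest. Acadm rose 6.56-fold in the early phase (2.71 ± 0.06, adjusted p = 3.5e-15) and fell by 0.81 on the log2 scale in the late phase (SE 0.06, adjusted p = 1.1e-08), the most negative late value of the 40 genes.

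None of the other acyl-CoA dehydrogenases fell in the late phase by the test. Acadvl (11370), the very-long-chain enzyme, was at 27.5 ± 0.849, 94.3 ± 8.20 and 103 ± 4.19 FPKM on days 0, 4 and 8 (SD, n = 3). It rose by 1.85 ± 0.06 and then by 0.18 ± 0.06 (adjusted p = 3.7e-13 and 0.023). Of its transcript stretches, 26.9% occur on the opposite strand in its neighbour Dvl2, which fell from 29.6 to 17.1 and 16.1 FPKM, and whether the counting used strand is not given in the sources used here. Acads, the short-chain enzyme, rose by 1.51 ± 0.06 in the early phase, and Acadl, the long-chain enzyme, by 0.89 ± 0.05 (adjusted p = 1.2e-12 and 2.7e-10). Neither passed the test in the late phase, with adjusted p = 0.11 for Acads and 0.21 for Acadl.

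The mitochondrial trifunctional protein joins the last 3 reactions for long chains in 1 complex, with its α subunit encoded by Hadha (97212) and its β subunit by Hadhb (231086). Both genes lie head to head on chromosome 5 of the mouse genome, Hadha on the minus strand and Hadhb on the plus strand. Their RefSeq start sites (GRCm38.p6) are separated by 272 bases, so the promoter windows of both genes, 250 bases before to 50 after the start, share most of their sequence. The shared stretch, chr5:30155003-30155230 of GRCm38.p6, is shown because the level of both subunits is compared below. It is 228 bases long, is written 5′ to 3′ on the strand of Hadhb, starts 250 bases before the Hadhb start site and ends 23 bases before it, and the capitals mark a GC box, GGGCGG, searched on both strands.
Hadha and Hadhb shared stretch: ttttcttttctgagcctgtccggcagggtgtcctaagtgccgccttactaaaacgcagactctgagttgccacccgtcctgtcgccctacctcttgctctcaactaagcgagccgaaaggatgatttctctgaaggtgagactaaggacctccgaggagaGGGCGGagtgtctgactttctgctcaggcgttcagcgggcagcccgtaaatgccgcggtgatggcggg

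Hadha and Hadhb changed by different amounts. Hadha was at 46.35, 50.27 and 45.58 FPKM at day 0, 79.9, 85.77 and 86.19 at day 4, and 90.21, 91.36 and 91.79 at day 8. Hadhb was at 25.05, 26 and 24.72 FPKM at day 0, 70.24, 75.77 and 80.16 at day 4, and 97.66, 101.65 and 101.72 at day 8. For each gene the 3 days were separate and in the order day 0, day 4, day 8. Hadha rose by 0.89 ± 0.05 and then 0.16 ± 0.05, and Hadhb by 1.64 ± 0.05 and then 0.46 ± 0.05 (adjusted p = 1.2e-10, 0.012, 2.2e-13 and 2e-06), and the late rise of Hadha was at 0.12 with an adjusted p of 0.060 when counts were scaled by library size alone. Hadha was 1.87, 1.11 and 0.908 times the level of Hadhb on days 0, 4 and 8, and the log2 ratio fell by 1.04 (SE 0.03) from day 0 to day 8. The ratio differed between the days by an exact permutation test over the 9 samples (p = 0.00357, the smallest value that the design allows, and 0.00833 adjusted over 14 pairs). Of the Hadhb transcript stretches, 19.7% also occur in Gm13910, a pseudogene that the files do not list.

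Head-to-head windows were counted for the other genes as well. RefSeq promoter windows were matched for 34 of the 40 genes, which have 39 windows, and 10 of these 39 (25.6%) overlapped the window of a gene on the other strand, beside 10.8% of all 32851 windows. The GC box GGGCGG was present in 22 of 39 windows (56.4%, and 35.7% of all windows) and the CCAAT box in 20 (51.3%, and 37.4% of all windows), both searched on both strands. The DR1 repeat of AGGTCA with a 1-base spacer, which PPAR and RXR are known to bind, its looser form with any base at the fourth position of each copy, and the ERR site TCAAGGTCA were in none of the 39 windows on either strand. These motifs were in 0.0396%, 0.381% and 0.423% of all windows, and the looser form also covers every match of the strict one. No match says only that these letters are absent from this window.

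The short-chain hydratase Echs1, the hydroxyacyl-CoA dehydrogenase Hadh and the thiolase Acaa2, which finish each round for shorter chains, had early changes of similar size. Their early log2 fold changes were 1.37 ± 0.07 for Echs1, 1.43 ± 0.06 for Hadh and 1.41 ± 0.06 for Acaa2 (adjusted p = 3.4e-11, 3.1e-12 and 3.2e-12), and none of them passed the test in the late phase. The auxiliary enzymes prepare unsaturated fatty acids for the cycle. Eci1, an enoyl-CoA isomerase, rose by 0.79 ± 0.06 and then fell by 0.20 (adjusted p = 0.0091). Decr1, the dienoyl-CoA reductase, rose by 1.08 ± 0.06 and then by 0.23 ± 0.05 (adjusted p = 5.1e-11 and 0.0023).

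Electrons from the acyl-CoA dehydrogenases of both pathways pass to the electron transfer flavoprotein, a dimer of the Etfa and Etfb products, and from there to its oxidoreductase Etfdh. Etfb (110826) was at 55.58, 56.74 and 57.08 FPKM at day 0, 122.48, 147.41 and 172.74 at day 4, and 180.68, 176.88 and 176.85 at day 8. The days were separate, and the day 4 samples were spread most widely. Etfb rose by 1.45 ± 0.09 and then 0.32 ± 0.08 (adjusted p = 3.3e-10 and 0.0047), although 44.8% of its transcript stretches are shared with the gene model Gm45233, which the files do not list. Etfa rose by 0.84 ± 0.06 and then 0.20 ± 0.06 (adjusted p = 4.4e-09 and 0.012). Etfdh rose 2.82-fold in the early phase (adjusted p = 6.7e-13), with a late value of 0.02 ± 0.05 (adjusted p = 0.77).

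Branched-chain breakdown begins with 2 aminotransferases, cytosolic Bcat1 and mitochondrial Bcat2, and these moved in opposite directions. Bcat1 (12035) was at 16.2, 18.91 and 15 FPKM at day 0, 2.85, 2.67 and 2.59 at day 4, and 4.79, 4.2 and 4.08 at day 8. Bcat2 (12036) was at 19.9, 20.85 and 21.98 FPKM at day 0, 147.49, 176.63 and 195.75 at day 4, and 117.83, 130.21 and 129.82 at day 8. At day 0 the highest Bcat1 sample was below the lowest Bcat2 sample, and on the later days both were far apart. Bcat1 was 5.89-fold lower at day 4 than at day 0 (-2.56 ± 0.08, adjusted p = 1.5e-13), the only 1 of the 40 genes to fall in the early phase, and Bcat2 was 8.54-fold higher (3.09 ± 0.09, adjusted p = 5.3e-14), the largest early rise of the 40.

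Both aminotransferases moved part of the way back after day 4. Bcat1 rose by 0.73 ± 0.09 (adjusted p = 4.8e-06), the largest late rise of the 40 genes, and Bcat2 fell by 0.41 (SE 0.08, adjusted p = 0.00053). The ratio of Bcat2 to Bcat1 was 1.26, 61.5 and 28.3 on days 0, 4 and 8, and the 9 samples separated fully by day. On the log2 scale it rose by 5.61 ± 0.20 and then fell by 1.12 (SE 0.20), and it differed between the days (exact permutation p = 0.00357, adjusted p = 0.00833).

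The branched-chain keto acid dehydrogenase complex, which commits the keto acids to oxidation, is built from the E1 subunits Bckdha and Bckdhb and the E2 core Dbt. Dbt (13171) was at 3.3, 3.37 and 2.8 FPKM at day 0, 14.43, 15.88 and 17.87 at day 4, and 18.2, 21.12 and 20.19 at day 8. Bckdhb (12040) was at 12.32, 13.92 and 13.22 FPKM at day 0, 46.3, 49.04 and 55.37 at day 4, and 65.07, 72.67 and 69.71 at day 8. Both genes rose in each phase, and no samples of different days overlapped. Dbt rose by 2.41 ± 0.10 and then 0.35 ± 0.08 (adjusted p = 1.8e-12 and 0.0017), and Bckdhb by 2.01 ± 0.08 and then 0.51 ± 0.07 (adjusted p = 1.1e-12 and 9.5e-06). Dbt remained the lowest of the 3 subunits in mean FPKM on each day.

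Bckdha (12039), the E1α subunit, had smaller fold changes than its partners. Its level was 29.6 ± 2.65, 71.7 ± 5.25 and 65.8 ± 3.6 FPKM on days 0, 4 and 8 (SD, n = 3), with log2 fold changes of 1.34 ± 0.07 early and -0.08 ± 0.07 late (adjusted p = 8e-11 and 0.37). Its transcripts overlap B3gnt8 on the other strand over 49.6% of their stretches, but B3gnt8 was at 0.453 FPKM or less on average on each day. Bckdk (12041) encodes the kinase that switches the complex off by phosphorylating E1α. It was at 27.06, 27.15 and 27.79 FPKM at day 0, 26.66, 29.56 and 28.15 at day 4, and 29.67, 29.48 and 28.02 at day 8. Day 4 overlapped both other days and day 8 lay just above day 0, with log2 fold changes of 0.11 ± 0.05 and 0.09 ± 0.05 (adjusted p = 0.063 and 0.14) and a small rise of 0.20 ± 0.05 over the whole course (adjusted p = 0.0018), which was at 0.09 with an adjusted p of 0.12 when counts were scaled by library size alone. The ratio of Bckdha to its kinase was 1.08, 2.54 and 2.26 on days 0, 4 and 8 (exact permutation p = 0.00714, adjusted p = 0.0111), and days 4 and 8 overlapped. The phosphatase Ppm1k, which switches the complex on, was low throughout, from 0.99 to 1.72 FPKM, and rose by 0.73 ± 0.11 in the early phase (adjusted p = 1.5e-05).

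**Figure D2:**
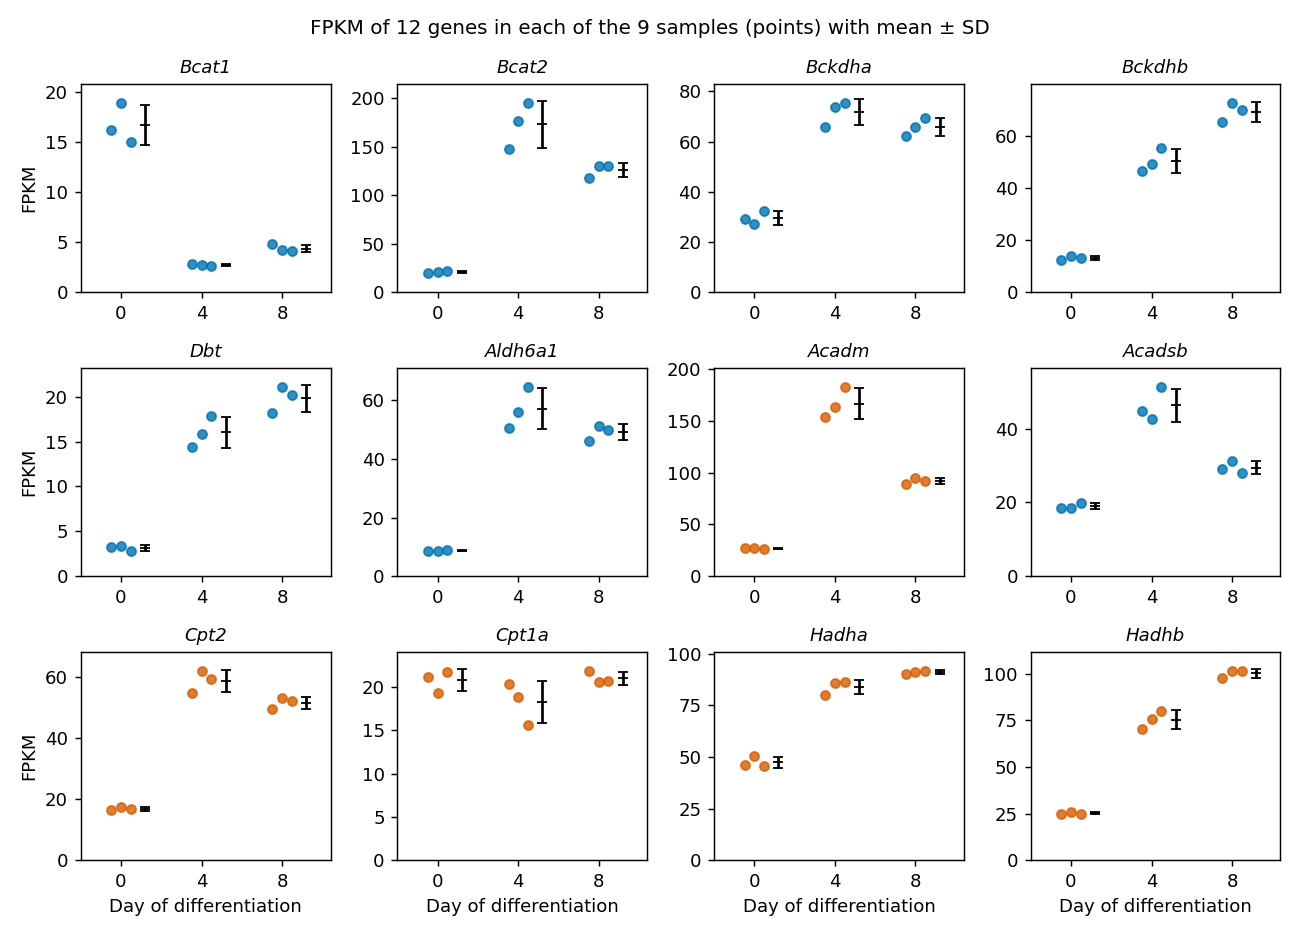
FPKM of 12 genes in each of the 9 samples by day of differentiation, with branched-chain genes in blue and fatty acid genes in orange, and the mean ± SD of the 3 samples of a day beside the points. Each panel has its own axis from 0. Bcat1 drops from 15 or more at day 0 to under 5, Acadm and Acadsb peak at day 4, Hadhb, Bckdhb and Dbt are highest at day 8, and the Cpt1a samples of day 0 overlap those of both later days.

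Each branched acyl-CoA then meets its own dehydrogenase, Ivd for leucine, Acadsb mainly for isoleucine and Acad8 for valine, and all 3 rose more than 2-fold in the early phase. Acadsb (66885) was at 18.35, 18.58 and 19.88 FPKM at day 0, 44.76, 42.66 and 51.37 at day 4, and 28.95, 31.3 and 27.94 at day 8. Its days were separate, with day 4 highest. It rose by 1.35 ± 0.07 and then fell by 0.61 (SE 0.06, adjusted p = 1e-06). Acad8 rose by 1.08 ± 0.07 and fell by 0.33 (SE 0.06, adjusted p = 0.0007), whereas Ivd rose by 1.45 ± 0.06 with a late value of 0.04 ± 0.06 (adjusted p = 0.60).

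The enzymes below this step belong to the leucine, valine and isoleucine branches, and all of them rose in the early phase. In the valine branch, Hibch, Hibadh and Aldh6a1 rose by 1.82 ± 0.09, 1.71 ± 0.07 and 2.79 ± 0.08. Aldh6a1 (104776), the methylmalonate semialdehyde dehydrogenase, was at 8.51, 8.57 and 8.88 FPKM at day 0, 50.69, 56.14 and 64.68 at day 4, and 46.06, 51.33 and 49.98 at day 8. All later samples were above those of day 0, days 4 and 8 overlapped, and the late fold change was -0.17 ± 0.07 (adjusted p = 0.056). This late value passed when counts were scaled by library size alone (-0.22, adjusted p = 0.017) and under other settings given below. In the leucine branch, the carboxylase subunits Mccc1 and Mccc2 rose by 0.83 ± 0.06 and 1.12 ± 0.07. The leucine branch hydratase Auh lay at the 2-fold line, with a log2 fold change of 1.00 ± 0.08 (adjusted p = 9.6e-09), and under it at 0.96 without day 0 replicate 1, 0.96 without day 4 replicate 3 and 0.99 without day 8 replicate 3. Among the isoleucine enzymes, Hsd17b10, a hydroxyacyl-CoA dehydrogenase, rose by 0.68 ± 0.05 and then fell by 0.20 (SE 0.05), and the thiolase Acat1 rose by 1.08 ± 0.05.

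Valine and isoleucine yield propionyl-CoA, which propionyl-CoA carboxylase (Pcca, Pccb), an epimerase (Mcee) and methylmalonyl-CoA mutase (Mut) turn into succinyl-CoA. All 4 genes rose in the early phase, from 0.91 ± 0.07 for Mut to 1.32 ± 0.12 for Mcee. Pcca rose further by 0.20 ± 0.07 and Pccb by 0.24 ± 0.06 in the late phase (adjusted p = 0.039 and 0.0029). Oxct1 (67041), the ketone body transferase, was the most abundant of the 40 genes at day 0, at 122 ± 6.83 FPKM, and was at 171 ± 10.2 at day 4 and 129.5 ± 4.61 at day 8 (SD, n = 3). Oxct1 rose by 0.55 ± 0.05 and then fell by 0.35 (SE 0.05, adjusted p = 5.9e-05).

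The order of the levels changed with the day. In FPKM, the leading genes at day 0 were Oxct1, Hsd17b10 (83.0 ± 3.75), Etfb (56.5 ± 0.786) and Etfa (53.4 ± 2.42). At day 4 Bcat2 (173 ± 24.3), Oxct1 (171 ± 10.2) and Acadm (167, with an SD of 15) led, and these neighbours lay within their SD of each other. By day 8 Etfb was first at 178 ± 2.20 FPKM, followed by Oxct1 at 129.5 ± 4.61 and Bcat2 at 126 ± 7.04, and the difference between the last pair was within their SD.

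To compare the pathways enzyme by enzyme, 14 pairs were formed: 7 between the pathways, and 7 of subunits, isoforms or enzyme and kinase. Pairs between the pathways were matched by the kind of reaction, except Cpt1a with Bckdha, paired as controlled steps. For each sample the log2 ratio of FPKM + 0.1 was taken, and the days were compared by an exact permutation test with p-values adjusted over the 14 pairs. In 12 of the 14 the ratio differed between the days at an adjusted p under 0.05. The share among other gene pairs was not computed, and 35.5% of all genes tested rose and 33.7% fell in the early phase alone. The pairs were also chosen with earlier results of these data known, so this count is not particular to these enzymes. Comparing only 3 samples with 3 could not give a p under 0.10, so single pairs of days are described by their values and by whether their ranges overlapped.

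Of the dehydrogenases, medium-chain Acadm and isovaleryl-CoA Ivd were at nearly equal FPKM at day 0, at a ratio of 1.07, and diverged to 2.56 at day 4 and 1.42 at day 8 (exact permutation, adjusted p = 0.00833). The ranges of the 3 days were separate. Short-chain Acads gained on both other branched enzymes. Its ratio to Acad8 was 4.24, 5.74 and 7.74 on days 0, 4 and 8 (adjusted p = 0.00833, exact permutation), with separate ranges. Against Acadsb the ratio was 1.33, 1.49 and 2.44 (adjusted p = 0.0182, exact permutation), where days 0 and 4 overlapped and day 8 was apart.

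For the hydroxyacyl dehydrogenases the order turned. Hadh stood at 0.579, 0.971 and 1.14 times the level of Hsd17b10 on days 0, 4 and 8, with separate ranges (adjusted p = 0.00833, exact permutation). The thiolases Acaa2 and Acat1 changed more evenly, at ratios of 0.761, 0.962 and 0.832 (adjusted p = 0.00833, exact permutation). The hydratases Echs1 and Auh were at ratios of 3.93, 5.08 and 4.09 (adjusted p = 0.0150, exact permutation), and days 0 and 8 overlapped.

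The controlled steps moved the other way. Cpt1a was at 0.704, 0.255 and 0.321 times the level of Bckdha on days 0, 4 and 8 (adjusted p = 0.0111, exact permutation), with days 4 and 8 overlapping and both below day 0. Among the subunit pairs, the ratio of Etfa to Etfb was 0.946, 0.622 and 0.570 on days 0, 4 and 8 (adjusted p = 0.0111, exact permutation). Days 4 and 8 overlapped in this ratio, and both were below day 0. Mccc1 against Mccc2 was at 1.11, 0.907 and 1.13 (adjusted p = 0.0292, exact permutation), with an adjusted p of 0.0542 by the same exact test without day 8 replicate 1 or without day 8 replicate 3. The ratio of Pcca to Pccb was 0.436, 0.464 and 0.451, with a log2 difference of 0.05 ± 0.08 from day 0 to day 8 (adjusted p = 0.473, exact permutation). Without day 0 replicate 2 that difference was 0.13, with an adjusted p of 0.020 by the same exact permutation. For Cpt1b against Cpt1a, at levels near 0, the adjusted p was 0.504.

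**Figure D3:**
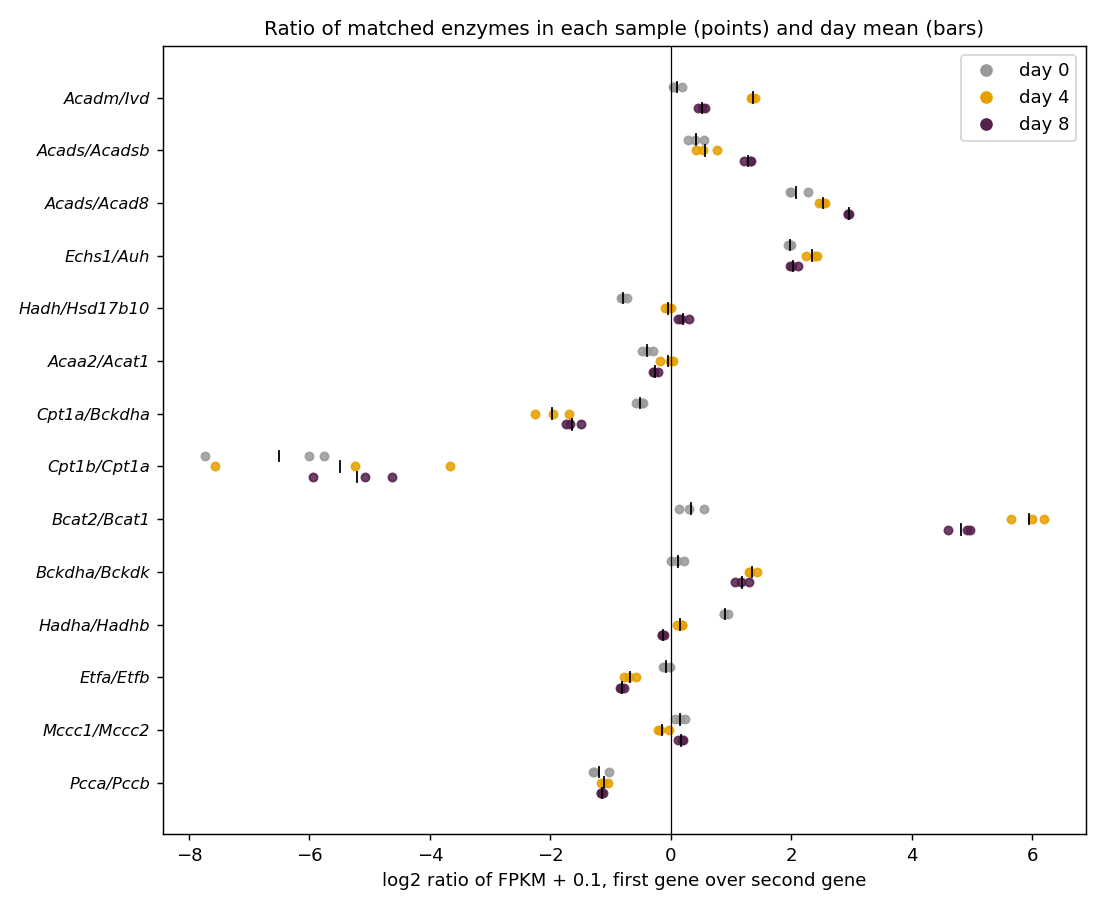
Log2 ratio of FPKM + 0.1 for 14 pairs of genes, the first gene over the second, with a point per sample, 3 samples a day, and a bar at the day mean. The Bcat2/Bcat1 points move from near 0 at day 0 to between 4 and 7 on the later days, the Hadha/Hadhb points of the 3 days are separate, and the Pcca/Pccb points overlap.

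In the late phase, genes of both pathways moved in both directions, as did genes overall. Of the fatty acid genes 33.3% rose and 20% fell, and of the branched-chain genes 33.3% rose and 19.0% fell, against 22.5% and 22.7% of all genes. Among fatty acid genes, 5 rose (Cpt1a, Acadvl, Hadha, Hadhb and Decr1) and 3 fell (Cpt2, Acadm and Eci1). Among branched-chain genes, 7 rose (Bcat1, Bckdhb, Dbt, Mccc1, Auh, Pcca and Pccb) and 4 fell (Bcat2, Acadsb, Acad8 and Hsd17b10). Of the 40 genes, 12 rose in both phases, 8 rose and then fell, and 16 rose in the early phase with no late change that passed the test, against 8.24%, 10.9% and 16.4% of all genes tested. Bckdk and Cpt1b passed in neither phase.

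Many of these late changes were small against the spread of the samples. In 9 further fits, each without 1 of the samples, all 37 early calls at any fold were made again, and so were 15 of the 22 late calls. The other 7 late calls, of Cpt1a, Cpt2, Acadvl, Eci1, Etfa, Hsd17b10 and Pcca, were lost without at least 1 sample, with no change of sign. Without day 4 replicate 1, Acadvl was at 0.11, Etfa at 0.13 and Pcca at 0.17 on the log2 scale (adjusted p = 0.10, 0.057 and 0.11). Without day 4 replicate 2, Cpt2 was at -0.07, Eci1 at -0.13 and Pcca at 0.22 (adjusted p = 0.33, 0.097 and 0.059), and without day 4 replicate 3, Cpt1a was at 0.15 and Cpt2 at -0.14 (adjusted p = 0.057 and 0.059). Among the day 8 samples, the calls of Cpt1a and Cpt2 were lost without replicate 1 (0.23 and -0.11, adjusted p = 0.056 and 0.17) and those of Acadvl and Pcca without replicate 2 (both 0.17, adjusted p = 0.073 and 0.14). Those of Acadvl, Cpt2, Hsd17b10 and Pcca were lost without day 8 replicate 3 (0.17, -0.14, -0.14 and 0.21, adjusted p = 0.059, 0.11, 0.078 and 0.070).

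Summed over the genes listed, both pathways had nearly the same FPKM on each day. The lists differ in length, so the sums depend on the genes chosen and do not compare levels per gene. The 15 fatty acid genes summed to 381 ± 6.57, 983 ± 61.4 and 928 ± 12.5 FPKM on days 0, 4 and 8 (SD, n = 3). The 21 branched-chain genes summed to 393 ± 11.6, 986 ± 83.2 and 924 ± 30.0 FPKM. On each day these sums differed between the pathways by no more than the sum of their SDs.

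The day 4 samples were spread more widely than the others, and in the same order in both pathways. Replicates 1, 2 and 3 of day 4 summed to 917, 994 and 1038 FPKM for the fatty acid genes and 904, 985 and 1070 for the branched-chain genes. The adipocyte markers followed this order, at 5972, 7080 and 8518 FPKM, and the 8 fibroblast markers the reverse, at 5483, 5447 and 5016 FPKM. In day 4 replicate 3, 12 of the 14 fatty acid genes counted and 19 of 21 branched-chain genes were above their day mean, against 1 of 14 and 2 of 21 in replicate 1 (Cpt1b, with values of 0, is left out). The part of cell composition in the changes of these genes was not tested.

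**Figure D4:**
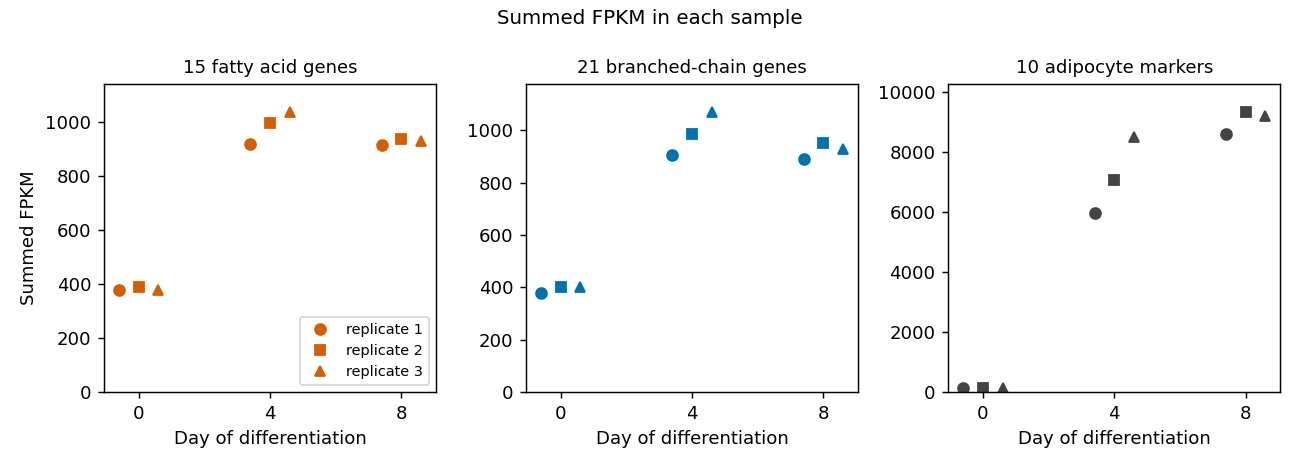
Summed FPKM of the 15 fatty acid genes, the 21 branched-chain genes and 10 adipocyte markers in each sample, by day and replicate, on axes that start at 0. In all panels the day 4 samples lie in the order replicate 1, 2, 3, and the pathway sums of days 4 and 8 lie between 891 and 1070, all above the day 0 samples.

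Markers of other cell types were followed in the same samples. All 10 adipocyte markers rose in the early phase, against 35.5% of all genes tested. Of the 8 fibroblast markers, 7 fell in the early phase, against 33.7% of all genes tested. Dlk1, a gene of preadipocytes, fell by 2.13 and Ly6a by 1.90 on the log2 scale (adjusted p = 3.4e-14 and 6.6e-15), and Cd34, Thy1, Col1a2, Vim and Col1a1 by between 0.69 and 0.18. Pdgfra rose by 0.84 ± 0.05 (adjusted p = 4.3e-10). In the late phase Dlk1 rose by 1.24 ± 0.06, Col1a1 by 0.85, Col1a2 by 0.81 and Thy1 by 0.45, Pdgfra and Vim fell by 0.59 and 0.48, and Ly6a and Cd34 did not pass the test (-0.09 and -0.55, adjusted p = 0.14 and 0.22). The 8 summed to 7197 ± 142, 5315 ± 260 and 6938 ± 105 FPKM on days 0, 4 and 8 (SD, n = 3). The 6 macrophage markers summed to between 4.31 and 6.65 FPKM, mostly Cd14, with Ptprc at 0.04 or less, Adgre1 at 0.03 or less and Itgam at 0.02 or less. The 4 endothelial markers summed to at most 0.50 FPKM. The 5 muscle markers summed to between 4.73 and 5.70 FPKM, mostly Actn3, while Ckm and Myh1 were at 0.03 and 0.01 FPKM or less. At these low levels, Cd14 fell by 0.45 in the early phase, and in the late phase Acta1 of the muscle list rose by 1.16 ± 0.31 and Pecam1 of the endothelial list by 1.01 ± 0.35 (adjusted p = 0.0084, 0.0062 and 0.027).

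Other genes of fatty acid oxidation moved in both directions. Of 15 further genes, 14 were tested, and 12 rose and 2 fell in the early phase, against 35.5% and 33.7% of all genes. Ech1, an auxiliary isomerase, rose by 1.44 ± 0.05, and Crat, a carnitine acetyltransferase, by 1.71 ± 0.06. Mlycd, which degrades the CPT1 inhibitor malonyl-CoA, rose by 1.32 ± 0.10. Acot2, a mitochondrial acyl-CoA thioesterase, fell by 1.12 and then rose by 1.06 ± 0.09 (adjusted p = 1.1e-08 and 8.7e-08). Cpt1c, the brain form of CPT1, fell by 0.57 in the early phase and by 0.32 in the late phase (adjusted p = 8.9e-07 and 0.001).

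Further genes of branched-chain handling, 14 in number, were all tested, and 12 rose and 2 fell in the early phase, against 35.5% and 33.7% of all genes. The genes that fell were Slc7a5 and Slc3a2, the subunits of a plasma membrane transporter of large neutral amino acids, by 0.69 and 0.38 on the log2 scale (adjusted p = 1.1e-08 and 1.5e-06). Slc7a5 was at 169.84, 154.3 and 149.94 FPKM at day 0 and at 93.3, 96.13 and 92.02 at day 4, with separate ranges. Slc43a1, another transporter of these amino acids, rose by 2.38 ± 0.20, and Slc25a44, their mitochondrial carrier, by 0.81 ± 0.05 (adjusted p = 2.2e-08 and 1.2e-09). Dld, the E3 subunit shared by the keto acid dehydrogenases, rose by 1.13 ± 0.07, from 31.3 FPKM on average at day 0 to 65.5 at day 4.

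Of 11 transcription regulators known to act on these pathways, 9 were tested, and 5 rose more than 2-fold in the early phase, against 9.77% of all genes tested. Pparg, the master regulator of fat cell formation, was at 11.45, 11.4 and 11.7 FPKM at day 0, 87.63, 91.86 and 100.22 at day 4, and 119.31, 136.43 and 133.39 at day 8. It rose in both phases, by 3.00 ± 0.07 and 0.52 ± 0.06 (adjusted p = 4e-15 and 2.7e-06). Klf15, a factor known for its control of branched-chain amino acid breakdown, was at 0, 0.02 and 0.04 FPKM at day 0, 5.29, 6.19 and 6.97 at day 4, and 14.44, 16.54 and 16.16 at day 8 (adjusted p = 6.7e-13 and 1.2e-08 for the phases). Ppara, the PPAR of liver β-oxidation, was not tested and was at 0.11 FPKM or less in every sample. Rxra rose by 1.17 ± 0.05 and then fell by 0.81 (SE 0.05, adjusted p = 2.1e-09). The coactivator Ppargc1a fell by 0.59 and then rose by 0.98 ± 0.07, whereas its relative Ppargc1b rose from 0.61, 0.94 and 0.81 FPKM at day 0 to 2.63, 2.94 and 3.42 at day 4 (adjusted p = 5.2e-09). Tfam, the mitochondrial transcription factor, was at 0.07 ± 0.08 and 0.06 ± 0.08 on the log2 scale (adjusted p = 0.42 and 0.56).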

How the data were processed

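RNA-seq of 9 samples of 3T3-L1 cells was used, grouped by the day in their titles. The authors removed reads of low quality, mapped the clean reads and estimated expression with RSEM, and the submitters' processing notes name CASAVA 1.4 and Bowtie2. The labels name a library kit of another maker than the sequencing platform. The genome build, the annotation and the use of strand are not given in the sources used here, so no gene coordinates were taken from the files. The deposited expected counts hold one RSEM estimate per gene, not normalized, and 29.8% are fractional counts. In the deposited FPKM, the authors divided each estimate by gene length and sample depth. Each file lists genes above 0 only, and a gene missing from a file was taken as 0.

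Expected counts were rounded to whole numbers. The tests used edgeR 4.0.16 under R 4.3.3. Low genes were removed with filterByExpr by day, library sizes were scaled with TMM, and all 9 samples entered 1 quasi-likelihood model (glmQLFit, glmQLFTest) with a coefficient per day. The model was tested on simulated counts with known changes. Calls were made at an adjusted p under 0.05, with or without a change of more than 2-fold. SE is the absolute log2 fold change divided by the square root of F. A count of 3 corresponds to 0.147 to 0.165 CPM in these samples. Ratios of gene pairs used FPKM + 0.1 and an exact permutation test over 1680 assignments of samples to days. Its statistic was the between-day sum of squares, so it tests for any difference among the 3 days. The genes, the pairs and the lists of other genes were chosen with earlier results of these data known, and the CCAAT and GGGCGG boxes were searched after values had been seen. All 40 genes and all 14 pairs were named, and from the further lists genes called in at least 1 comparison or given as background, with summed levels for the marker lists. A gene of the further lists is not reported here. Alternatives were other scaling factors, DESeq2 1.42.0, edgeR's exact test and glmTreat, limma 3.58.1 on log2 FPKM, other filters and a stricter threshold. Further fits used only the 2 days compared, a replicate block, or left each sample out in turn. Transcript stretches of 50 bases shared with other genes were found in GENCODE vM21, and promoter windows are from RefSeq (GRCm38.p6).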

Additional observations from a re-analysis of the deposited data

How the results depend on the processing

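Of the 37 early calls at any fold among the 40 genes, all 37 were made again under 11 other settings (scalings, tools, filters, days in the model and the replicate block) and with each of 9 samples left out. Of the 22 late calls, 16 were made under all 11 (lost were Cpt2 with RLE factors or DESeq2, adjusted p = 0.067 and 0.094, Acadvl, Hadha and Pcca with library size alone or either limma fit, and Cpt1a and Etfa with either limma fit) and 15 with every sample left out, and of the 38 calls of the whole course 36 and 38. Of the 27 genes that rose more than 2-fold early, Decr1, Acad8, Mccc2, Auh and Acat1 did not pass under glmTreat or limma on log2(FPKM + 1), leaving 22. Auh, at 2-fold itself, also fell short with RLE, upper-quartile or no factors, DESeq2, limma on log2(FPKM + 0.1) and only the 2 days compared (log2 0.925 to 0.997), leaving 26, and without day 0 replicate 1, day 4 replicate 3 or day 8 replicate 3 (0.956, 0.958 and 0.992). Of the 28 of the whole course, Hadha, Etfa, Mccc1 and Mccc2 did not pass under glmTreat, library size alone or either limma fit, leaving 24, and Hadha and Etfa with upper-quartile factors, leaving 26. Cpt1b, not called over the whole course, passed with only the 2 days compared (adjusted p = 0.014) and without day 4 replicate 2 or 3 (0.025 and 0.041). Cpt1a, also not called there, passed by edgeR with only the 2 days compared (0.14, adjusted p = 0.026). Without day 4 replicate 3, Cpt1a passed as well (0.13, adjusted p = 0.034, edgeR). Without TMM (library size alone), the median of all genes over the whole course moved from -0.02 to -0.13, the medians of that comparison were 1.20 (fatty acid) and 1.15 (branched-chain), 1 fatty acid gene (Cpt1a) fell early, 3 rose late, and the late fatty acid median was -0.0075. Limma on log2(FPKM + 1) called 708 genes higher and 565 lower early, 224 and 136 late, and 753 and 528 over the whole course. Its medians were 1.27 (fatty acid) and 1.07 (branched-chain) early, and 1.15, 1.35 (electron transfer) and 1.13 over the whole course, while with FPKM + 0.1 they were 1.30 early for fatty acid genes, and 1.20 and 1.15 over the whole course. Under both, 2 fatty acid genes and 1 electron transfer gene rose late. Testing against 2-fold (glmTreat) left 664 genes lower early, 248 higher and 129 lower late, and 571 lower over the whole course. With at least 10 counts in every sample, 831 genes were higher early, and 310 higher and 173 lower late. At an adjusted p under 0.001, 221 genes were lower by more than 2-fold late, and 1 fatty acid, 0 electron transfer and 2 branched-chain genes rose and 1 fatty acid gene fell at any fold. The cause of these differences was not tested, apart from the smaller number of genes that a filter leaves.

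With each sample left out in turn, the early medians ranged from 1.29 to 1.45 (fatty acid) and from 1.33 to 1.52 (electron transfer), and the late medians from -0.027 to 0.118 (fatty acid) and from -0.0014 to 0.104 (branched-chain), below 0 without day 4 replicate 1 in both cases. The number of fatty acid genes that fell was 0 to 1 early (1 without day 4 replicate 1) and 1 to 4 late (1 without day 4 replicate 2), and 1 to 2 electron transfer genes rose late (1 without day 4 replicate 1). The log2 ratio of Mccc1 to Mccc2 changed by -0.024 to 0.065 from day 0 to day 8 (below 0 without day 0 replicate 2) and that of Pcca to Pccb by 0.0043 to 0.130, and with FPKM + 1 the latter was -0.026. Late values near 0 that did not pass the test turned sign over the fits without 1 sample for Cpt1b (-0.57 to 1.22), Echs1 (-0.130 to 0.030), Etfdh (-0.0014 to 0.056), Hadh (-0.027 to 0.099), Hibch (-0.113 to 0.034), Ivd (-0.0076 to 0.098), Mcee (-0.0076 to 0.142) and Mut (-0.076 to 0.0097). Without TMM, late values were -0.0075 for Hadh, -0.025 for Etfdh and -0.0050 for Ivd, and with limma they were -0.0035 for Hadh, -0.024 for Etfdh, and -0.0043 (FPKM + 1) and -0.0044 (FPKM + 0.1) for Ivd. Cpt1b was at 0.013 with RLE factors, 0.0090 with DESeq2, and 0.035 (FPKM + 1) and 0.49 (FPKM + 0.1) with limma. Left out singly, day 4 replicates also added late calls, of Acaa2 (-0.16) and Aldh6a1 (-0.25) without replicate 1, Acads (0.18) and Bckdk (0.16) without replicate 2, and Acat1 (0.13) and Hibadh (0.19) without replicate 3, and early calls of Bckdk (0.15) and Cpt1a (-0.20) without replicate 1.

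Replicate numbers are shared by the days, but the deviations of same-numbered samples from their day means correlated at -0.0348 to 0.0750, and 4 of 9 samples correlated best with their own number, so the numbers were not taken to pair the samples. With the replicate block, 1287 genes were higher and 1053 lower early, against 1285 and 1050 without it. The block called the late fall of Aldh6a1 (-0.17, adjusted p = 0.017) and the whole-course value of Cpt1b (1.79, adjusted p = 0.043), whose late value it moved to 0.090, and changed no other call among the 40 genes. Without the block, edgeR also called the fall of Aldh6a1 with upper-quartile factors, library size alone or no filter (adjusted p = 0.046, 0.017 and 0.034). Limma called it with FPKM + 1 and FPKM + 0.1 (adjusted p = 0.041 and 0.040). Acaa2 was called lower late with library size alone (edgeR, adjusted p = 0.014) and by these limma fits (0.018 and 0.019).

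The limits are the 3 samples a day of 1 cell line, pooled RNA of unknown independence, and a few genes whose transcripts share stretches with other gene models. For Cpt1b, with counts from 0 to 65, the samples of the days overlapped, so the days were not ordered.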
